A study of Mus musculus with 4 samples.

Results

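A set of 41 genes of T cells and natural killer cells was read in 4 lung RNA libraries from mice given amiodarone, dabigatran, both drugs or vehicle. The genes were chosen by name, 28 for T cells and 13 for natural killer and cytotoxic cells, and all 41 were found by symbol among the 17780 genes of the table. Levels are given in FPKM (sequenced fragments for each kilobase of transcript, adjusted for library depth) beside the estimated reads behind them. A ratio is stated only for a gene with 10 or more reads in at least 1 library, which left 28 T cell genes and 12 natural killer and cytotoxic genes. The gene without a ratio was Ifng, the cytokine interferon-gamma of both cell types, which had 2 reads on vehicle, 5 on amiodarone, 6 on dabigatran and 9 on both drugs. The member next above that limit was Foxp3, the transcription factor of regulatory T cells, with 20 reads in its highest library.

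Male C57BL/6 mice (C57BL/6J in the study's methods), a few weeks old at purchase, were dosed by mouth on weekdays. The labels give 28 days of treatment for every group, whereas the methods date the collection of lung tissue slightly earlier. The vehicle group received carboxymethylcellulose alone, the amiodarone group amiodarone hydrochloride (an antiarrhythmic drug with known lung toxicity), the dabigatran group dabigatran etexilate (an oral inhibitor of thrombin) and the last group both drugs, all in the same vehicle. Polyadenylated RNA of the left lung was sequenced as 1 library per group, and the sources used here do not state whether a library held RNA of 1 mouse or of several. Every ratio below therefore compares a pair of libraries, with no replicate and no test, and a treatment cannot be told apart from the animal that received it.

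T cells recognise peptides through an antigen receptor whose signal is carried by the CD3 chains, with CD4 or CD8 as the co-receptor of helper and cytotoxic T cells. Natural killer cells lack that receptor, read stress and self ligands through receptors such as NKp46 and the NKG2 family, and kill with granules of perforin and granzymes that cytotoxic T cells also carry. In the lung both cell types lie in capillaries and tissue, and many of the genes that mark cytotoxic function are shared between them.

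Total estimated reads ranged from 17498486 with vehicle to 18903401 with both drugs, so the depth was similar. Each ratio is printed with its exact Clopper-Pearson 95% interval from the reads, which covers counting error only. A gene is called higher or lower in a comparison where the ratio is at least 1.5-fold and the interval excludes 1. The amiodarone and dabigatran comparisons against vehicle share the vehicle library, and the comparisons of amiodarone + dabigatran share its library. The lung epithelial genes Sftpc, Sftpb, Ager and Scgb1a1 were present at high levels in every library, and the list of lung epithelial genes summed to between 100638 and 150697 FPKM. The thymus genes Rag1, Rag2, Dntt, Ptcra and Psmb11 were each listed at 0 in at least 1 library. In RNA of whole lung, fewer cells of a type and less RNA per cell cannot be told apart.

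The members spanned low to moderate levels. Among the T cell genes Cd2, Thy1 and Tcf7 were highest in every library and together made 34.3% to 38.4% of the summed level, while Foxp3 lay between 0.22 and 0.28 FPKM. Of the natural killer and cytotoxic genes Gzma and Nkg7 led, and the highest 3 genes of that class made 67.8% to 72.0% of its sum. The T cell genes summed to 163.79 FPKM on vehicle, 149.87 on amiodarone, 163.48 on dabigatran and 159.97 on both drugs. The natural killer and cytotoxic genes summed to 68.03 FPKM on vehicle, 87.51 on amiodarone, 115.73 on dabigatran and 101 on both drugs. The T cell sum thus moved little between libraries, whereas the natural killer and cytotoxic sum was lowest with vehicle and highest with dabigatran.

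**Figure D1:**
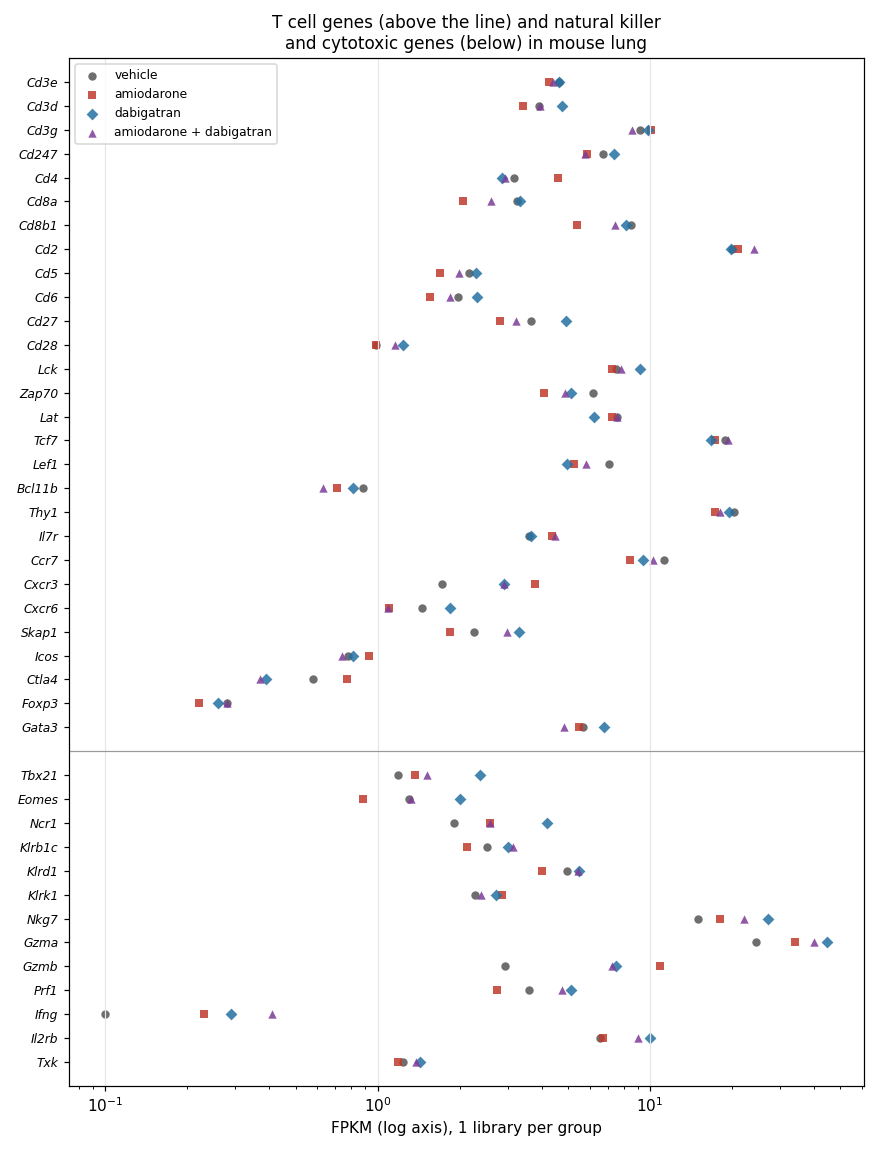
Level of each member in FPKM on a log axis, 1 point per library, with the T cell genes above the line and the natural killer and cytotoxic genes below it. The dabigatran points of Ncr1, Tbx21, Nkg7 and Gzma lie to the right of the other 3 libraries, and the vehicle point of Gzmb lies at 2.93 FPKM against 7.25 to 10.9 in the others.

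The comparison of amiodarone with vehicle addresses which genes differ in the lung under the drug whose lung toxicity the study models. T cell genes were mostly a little lower and the cytotoxic genes were split. Of the 28 T cell genes 7 were higher and 20 lower, 1 was called higher (Cxcr3) against 5.33% of all genes, and 3 were called lower (Cd8a, Cd8b1 and Zap70) against 7.50% of all genes. Over all 15169 genes 6192 were higher and 8880 lower. The median log2 ratio of the T cell genes was -0.20, beside -0.06 over all genes. Of the 12 natural killer and cytotoxic genes 7 were higher and 5 lower with a median of 0.12, and 1 was called higher (Gzmb) and 0 lower. Both shares of called T cell genes lay near those of all genes.

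The comparison of dabigatran with vehicle shows what dabigatran goes with in the absence of amiodarone. All 12 natural killer and cytotoxic genes with a ratio were higher, from 1.11-fold to 2.57-fold, and 7 of them were called higher (Tbx21, Eomes, Ncr1, Nkg7, Gzma, Gzmb and Il2rb), whereas 1.56% of all genes were called higher. Of the 28 T cell genes 16 were higher and 12 lower, 1 was called higher (Cxcr3) and 0 lower, where 1.56% of all genes were called lower. Over all 15169 genes 7574 were higher and 7448 lower. The median log2 ratio was 0.62 for the natural killer and cytotoxic genes, 0.03 for the T cell genes and 0.00 over all genes. The intervals of 8 natural killer and cytotoxic genes (66.7%) lay above 1 and those of 0 below it, beside 13.9% and 12.3% of all genes.

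Amiodarone + dabigatran against amiodarone asks what the addition of dabigatran goes with. Here 10 of the 12 natural killer and cytotoxic genes were higher, 2 were called higher (Eomes and Prf1) against 2.79% of all genes, and 0 were called lower against 2.28% of all genes. Of the T cell genes 19 were higher and 9 lower, with Skap1 called higher and Cd4 and Ctla4 called lower. Over all 15169 genes 8657 were higher and 6383 lower. The median log2 ratio was 0.26 for the natural killer and cytotoxic genes, 0.13 for the T cell genes and 0.04 over all genes.

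Against dabigatran alone, the combination had lower levels of 11 of the 12 natural killer and cytotoxic genes, and 3 were called lower (Tbx21, Eomes and Ncr1) where 4.88% of all genes were. Of the T cell genes 9 were higher and 19 lower, and 2 were called lower (Cd27 and Cxcr6). Over all 15169 genes 7032 were higher and 8030 lower. No member was called higher, against 4.44% of all genes, and the intervals of 3 T cell genes (10.7%) lay above 1, beside 17.9% of all genes. The median log2 ratios were -0.12 for T cell genes, -0.15 for natural killer and cytotoxic genes and -0.02 over all genes, so that neither class stood far from the other in this comparison.

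**Figure D2:**
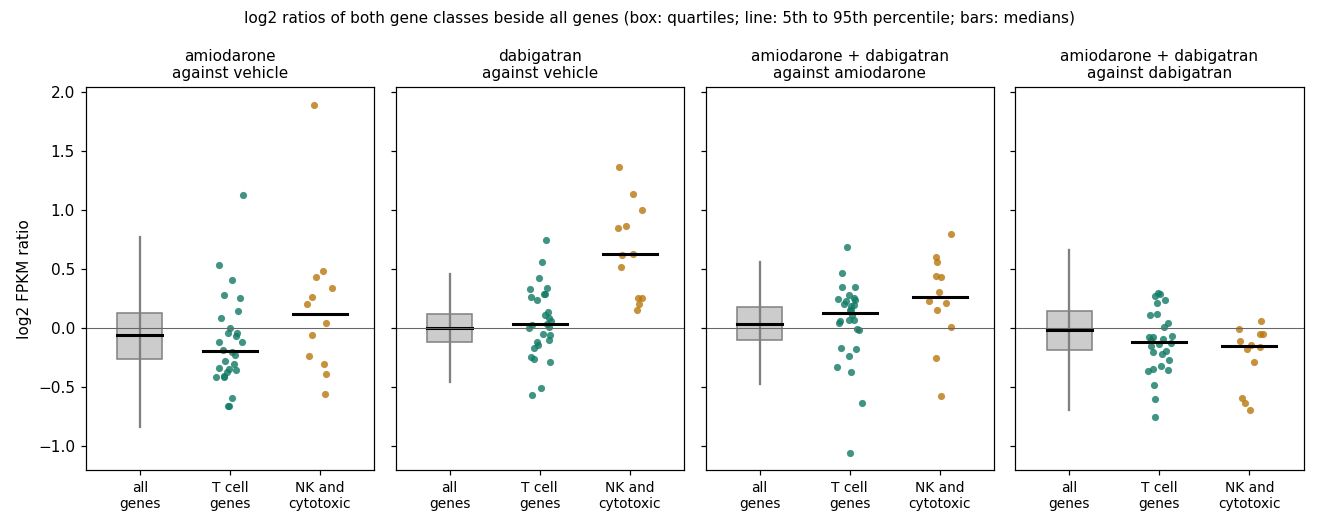
The log2 FPKM ratio of each member, as 1 point per gene, in the 4 comparisons, with all genes as a grey box (quartiles, line from the 5th to the 95th percentile) and black bars at the medians. The natural killer and cytotoxic points lie above 0 in the comparison of dabigatran with vehicle, with a median of 0.62 beside 0.03 for the T cell genes.

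The CD3 chains, which carry the signal of the T cell receptor, differed little between libraries. Cd3e, on chr9:44998735-45009663 of GRCm38.p6, read 4.63 FPKM on vehicle, 4.25 on amiodarone, 4.65 on dabigatran and 4.42 on both drugs. Cd3d read 3.90, 3.42, 4.76 and 3.94 FPKM in the same order, and Cd3g 9.16, 10.1, 9.86 and 8.58 FPKM. Cd247, the zeta chain that natural killer cells use as well, read 6.73, 5.85, 7.40 and 5.76 FPKM. Their ratios stayed between 0.778 and 1.22 in the 4 comparisons, and among these 4 genes the interval excluded 1 only for Cd247 in the combination against dabigatran (0.778, 0.634 to 0.956).

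The co-receptor genes separated the amiodarone library from the rest. Cd4, the co-receptor of helper T cells that some macrophages and dendritic cells also express, read 3.16 FPKM on vehicle, 4.58 on amiodarone, 2.86 on dabigatran and 2.94 on both drugs. Cd8a, the alpha chain of the cytotoxic co-receptor (chr6:71373427-71379171), read 3.25, 2.05, 3.32 and 2.61 FPKM, and Cd8b1, its beta chain at chr6:71322788-71337492, read 8.49, 5.37, 8.16 and 7.42 FPKM. Cd4 was thus highest, and both CD8 chains lowest, in the library with amiodarone alone.

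Against vehicle the amiodarone library held 0.631 times the Cd8a level (0.495 to 0.801) and 0.633 times the Cd8b1 level (0.505 to 0.790). Its Cd4 level was 1.45 times that of vehicle (1.19 to 1.77), under the 1.5-fold needed for a call. With both drugs Cd4 was 0.642 times its level with amiodarone alone (0.526 to 0.782), a call, while Cd8b1 was 1.38-fold higher (1.1 to 1.73) and the interval of Cd8a (1.27, 0.994 to 1.63) included 1. Relative to dabigatran alone, Cd8a was 0.786 with both drugs (0.629 to 0.981).

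Taken within each library, the level of Cd4 was 0.972 times that of Cd8a on vehicle (0.782 to 1.21), 2.23 times on amiodarone (1.79 to 2.80), 0.861 times on dabigatran (0.690 to 1.07) and 1.13 times on both drugs (0.899 to 1.41). The amiodarone interval did not overlap any of the other 3. The ratio of Cd8b1 to Cd8a stayed between 2.46 and 2.84 in the 4 libraries, so the chains of the CD8 pair moved together.

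Among the surface and costimulatory genes, Cd27, a TNF-family receptor that sustains T cell and natural killer cell responses, read 3.65 FPKM on vehicle, 2.81 on amiodarone, 4.90 on dabigatran and 3.22 on both drugs. It was highest with dabigatran, and the combination held 0.657 times that level (0.498 to 0.864). Ctla4, an inhibitory receptor of activated and regulatory T cells, rested on 19, 27, 13 and 13 reads. The ratio of both drugs to amiodarone was 0.481 for Ctla4 (0.228 to 0.964), a call that a minimum of 30 reads would not admit. The other 6 genes of this group (Cd2, Cd5, Cd6, Cd28, Thy1 and Icos) were not called in any comparison.

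Of the signalling genes, Zap70, the kinase that binds the phosphorylated CD3 and zeta chains, read 6.15 FPKM on vehicle, 4.08 on amiodarone, 5.13 on dabigatran and 4.86 on both drugs. The vehicle library was the highest, and amiodarone was 0.663 times vehicle (0.538 to 0.817). From reads scaled to the library total, that ratio was 0.759, and after rescaling by the median ratio 0.686, neither of them a call. Skap1, an adaptor that links the T cell receptor to integrins, read 2.25, 1.85, 3.31 and 2.98 FPKM, with both dabigatran libraries above both others. The ratio of both drugs to amiodarone was 1.61 for Skap1 (1.18 to 2.21), and 1.49 from scaled reads, just under a call. Lck, the kinase that starts receptor signalling, and Lat, the membrane scaffold of that pathway, were not called in any comparison.

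The 5 transcription factors Tcf7, Lef1, Bcl11b, Foxp3 and Gata3, which set and keep T cell identity, were all lower with amiodarone than with vehicle. So were 8880 of all 15169 genes. The ratios of the 5 factors ran from 0.749 to 0.970, and none was called in any comparison. In the combination against dabigatran, 3 of these 5 were higher and 2 lower.

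The chemokine receptor Cxcr3, which guides activated T cells and natural killer cells along interferon-induced chemokines, had the largest ratio among the T cell genes. On chrX:101731535-101734147, it read 1.73 FPKM on vehicle (47 reads), 3.78 on amiodarone (110), 2.90 on dabigatran (80) and 2.92 on both drugs (86). The vehicle library was lowest and the amiodarone library highest. Cxcr3 was 2.18-fold higher with amiodarone than with vehicle (1.54 to 3.14) and 1.68-fold higher with dabigatran than with vehicle (1.15 to 2.46), while the interval of both drugs against amiodarone (0.772, 0.576 to 1.03) included 1. Against Cd3e in the same library, Cxcr3 stood at 0.374 on vehicle (0.260 to 0.530), 0.889 on amiodarone (0.677 to 1.17), 0.624 on dabigatran (0.463 to 0.837) and 0.661 on both drugs (0.494 to 0.881).

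Cxcr6, a receptor of tissue-resident T cells for the ligand Cxcl16, read 1.46, 1.1, 1.84 and 1.09 FPKM in the order vehicle, amiodarone, dabigatran and both drugs. Both amiodarone libraries lay below both others, and the combination was 0.592 times dabigatran (0.384 to 0.904). Il7r and Ccr7, receptors of naive and memory T cells, were not called.

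**Figure D3:**
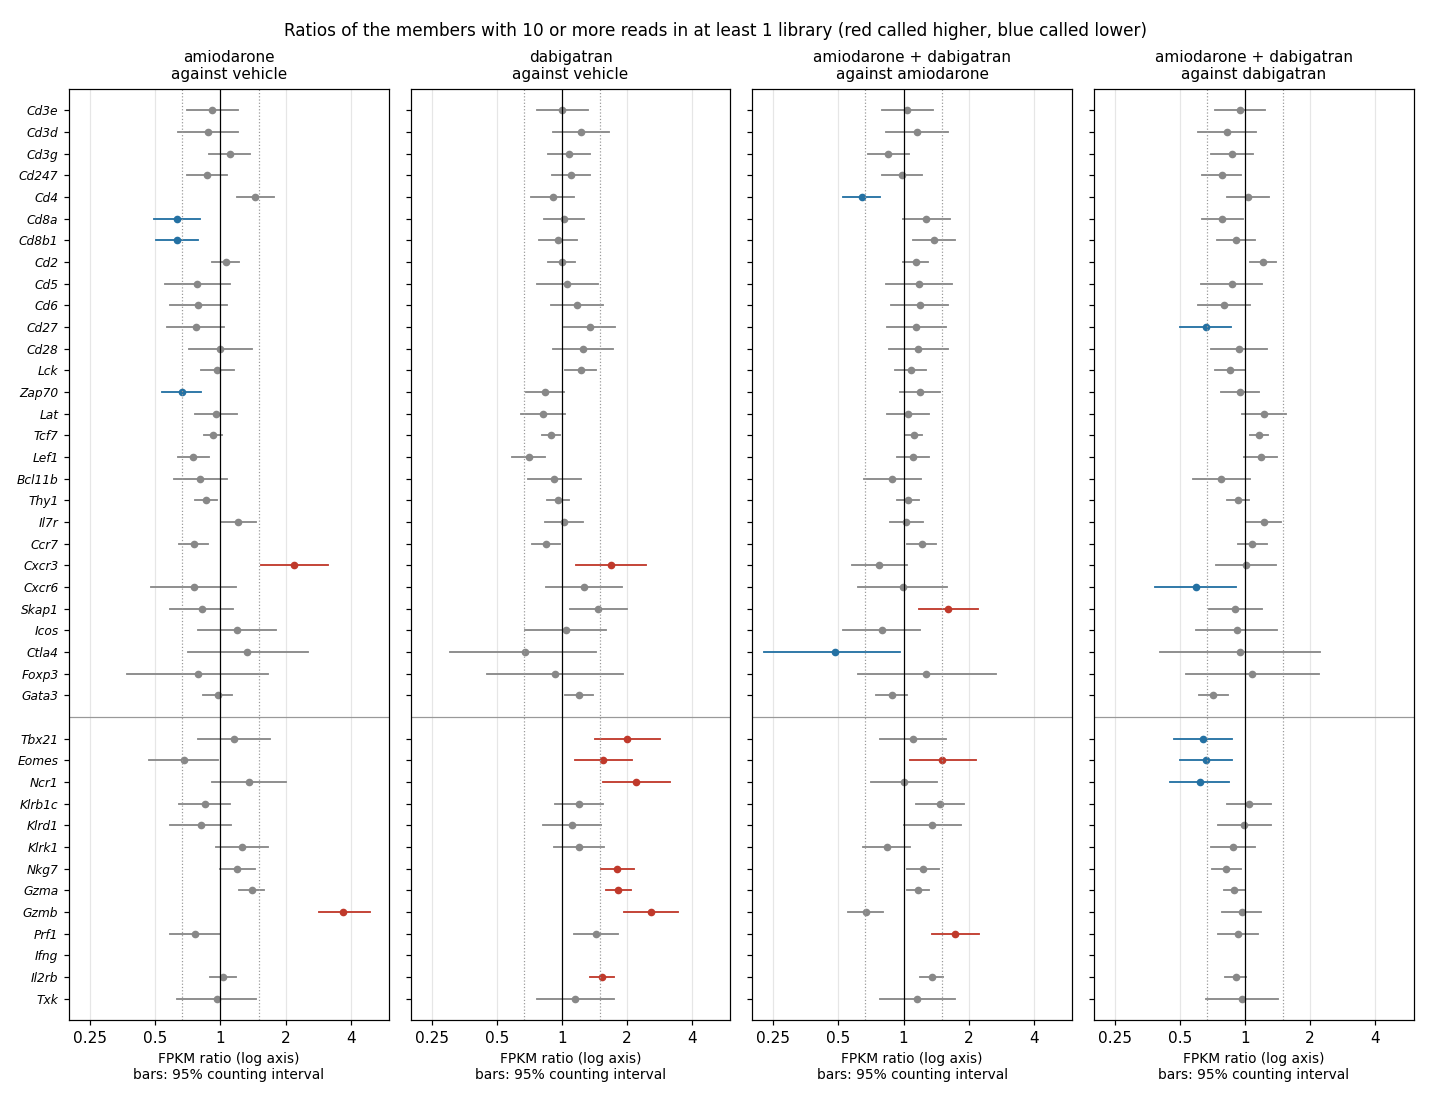
FPKM ratio of each member with its 95% counting interval on a log axis, in the 4 comparisons, with calls higher in red, calls lower in blue and dotted lines at 1.5-fold. Red points in the comparison of dabigatran with vehicle lie among the natural killer and cytotoxic genes below the line, apart from Cxcr3, and Ifng carries no ratio.

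The transcription factors of natural killer and effector cells were highest with dabigatran alone. Tbx21, which encodes T-bet and drives interferon-gamma and cytotoxic genes, read 1.19 FPKM on vehicle, 1.37 on amiodarone, 2.37 on dabigatran and 1.52 on both drugs. Eomes, its relative in natural killer and memory CD8 T cells, read 1.30, 0.88, 2.01 and 1.33 FPKM. Both genes exceeded vehicle in the dabigatran library, Tbx21 by 1.99-fold (1.42 to 2.83) and Eomes by 1.55-fold (1.15 to 2.10).

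With both drugs, Tbx21 was 0.641 times dabigatran alone (0.468 to 0.874) and Eomes 0.662 times (0.499 to 0.875). Eomes was also the member of its class with the lowest ratio of amiodarone to vehicle, 0.677 (0.467 to 0.977), and it was 1.51-fold higher with both drugs than with amiodarone (1.07 to 2.16). The latter call of Eomes was lost after rescaling by the median ratio (1.47). Its call against dabigatran was lost both there (0.667, just short of 1.5-fold) and from reads scaled to library totals (0.708). Dabigatran alone was the highest library for both genes, while the lowest was vehicle for Tbx21 and amiodarone for Eomes.

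Ncr1, at chr7:4337715-4345184, encodes NKp46, an activating receptor carried by nearly all natural killer cells of the mouse and by few T cells. It read 1.91 FPKM on vehicle (47 reads), 2.58 on amiodarone (68), 4.2 on dabigatran (105) and 2.59 on both drugs (69). The dabigatran library stood above the other 3, at 2.2 times vehicle (1.54 to 3.17), and the combination was 0.617 times dabigatran (0.448 to 0.843). The level with both drugs differed from that with amiodarone alone by less than the counting error, at a ratio of 1.0 (0.708 to 1.42).

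Set against the T cell gene Cd3e in the same library, Ncr1 stood at 0.413 on vehicle (0.287 to 0.585), 0.607 on amiodarone (0.442 to 0.829), 0.903 on dabigatran (0.686 to 1.19) and 0.586 on both drugs (0.429 to 0.796). The vehicle and dabigatran intervals did not overlap.

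The lectin-like receptors varied less than Ncr1. Klrb1c, which encodes the NK1.1 antigen, read 2.52 FPKM on vehicle, 2.13 on amiodarone, 3.01 on dabigatran and 3.14 on both drugs. Klrd1, the CD94 chain that pairs with NKG2 receptors, read 4.94, 4.0, 5.48 and 5.43 FPKM, and Klrk1, the NKG2D receptor for stress ligands, read 2.27, 2.86, 2.71 and 2.39 FPKM. For Klrb1c and Klrd1 both dabigatran libraries were above both others. None of the 3 was called, although Klrb1c was 1.47-fold higher with both drugs than with amiodarone (1.14 to 1.91).

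The ratio of dabigatran to vehicle for Klrk1 was 1.19 from FPKM and 1.59 from reads scaled to the library total, which would be a call. Its reads per unit of FPKM, at equal depth, differed by up to 1.40 times between libraries, and among the 40 members with a ratio 2 differed by over 1.2 times, Klrk1 and Cd3d.

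The granule genes included the largest ratio of any member, that of Gzmb. Gzma, a granzyme stored by resting natural killer cells, at chr13:113093824-113100981, read 24.6 FPKM on vehicle (353 reads), 34.2 on amiodarone (526), 44.8 on dabigatran (652) and 39.9 on both drugs (621). Nkg7, a granule membrane protein needed for degranulation, read 15.0, 18.0, 27.1 and 22.2 FPKM. For Gzma and Nkg7 the order of the libraries was the same, with vehicle lowest, then amiodarone, then both drugs, and dabigatran highest.

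Gzma was 1.82-fold higher with dabigatran than with vehicle (1.60 to 2.08) and 1.39-fold higher with amiodarone than with vehicle (1.21 to 1.60). Nkg7 was 1.80-fold higher with dabigatran (1.51 to 2.15), and its interval with amiodarone (1.2, 0.990 to 1.45) included 1. Adding dabigatran to amiodarone went with ratios of 1.17 for Gzma (1.04 to 1.31) and 1.23 for Nkg7 (1.04 to 1.46), both under 1.5-fold.

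Gzmb, the granzyme of activated cytotoxic cells, at chr14:56258836-56262334, followed another order. It read 2.93 FPKM on vehicle (70 reads), 10.9 on amiodarone (277), 7.53 on dabigatran (182) and 7.25 on both drugs (187). Vehicle was lowest here too, but amiodarone alone was highest. Against vehicle, Gzmb was 3.70-fold higher with amiodarone (2.84 to 4.88) and 2.57-fold higher with dabigatran (1.94 to 3.44). With both drugs it was 0.668 times amiodarone alone (0.552 to 0.807), just short of a call, and 0.963 times dabigatran alone (0.781 to 1.19).

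Perforin, the pore-forming protein encoded by Prf1, did not follow Gzmb. Prf1 read 3.59 FPKM on vehicle, 2.74 on amiodarone, 5.13 on dabigatran and 4.76 on both drugs. It was lowest with amiodarone, at 0.763 times vehicle (0.583 to 0.998), and with both drugs it was 1.74-fold higher than with amiodarone (1.36 to 2.23). Dabigatran against vehicle gave 1.43 for Prf1 (1.13 to 1.81), under the fold for a call.

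Within each library, Gzmb stood at 0.119 of Gzma on vehicle (0.0910 to 0.155), 0.317 on amiodarone (0.273 to 0.368), 0.168 on dabigatran (0.142 to 0.199) and 0.182 on both drugs (0.153 to 0.214). Relative to Prf1, Gzmb stood at 0.816 on vehicle (0.601 to 1.1), 3.96 on amiodarone (3.15 to 5.01), 1.47 on dabigatran (1.19 to 1.81) and 1.52 on both drugs (1.24 to 1.88). In both ratios the amiodarone interval lay above those of the other 3 libraries, so the granule genes did not move as a unit in that library.

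**Figure D4:**
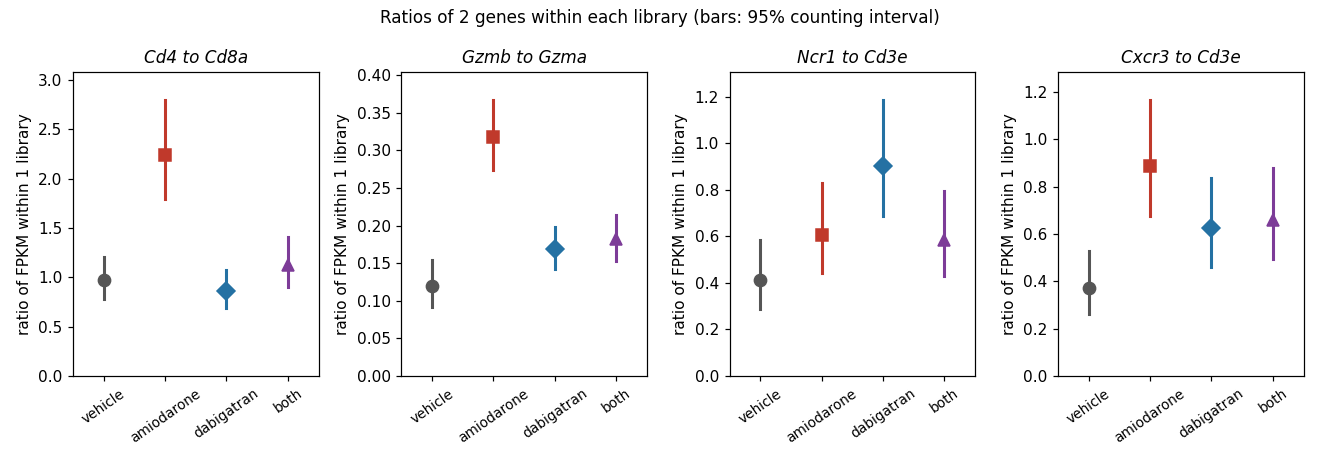
Ratio of the FPKM of a pair of genes inside each library, with 95% counting intervals, on axes that start at 0. The amiodarone library stands apart for Cd4 to Cd8a (2.23) and Gzmb to Gzma (0.317), and the dabigatran library is highest for Ncr1 to Cd3e (0.903).

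Il2rb, the receptor chain through which IL-2 and IL-15 maintain natural killer cells and memory T cells, read 6.54 FPKM on vehicle, 6.72 on amiodarone, 10.01 on dabigatran and 9.06 on both drugs. Both dabigatran libraries were above both others. The ratio of dabigatran to vehicle was 1.53 for Il2rb (1.35 to 1.74), or 1.47 from scaled reads, where it was no longer called, and the ratio of both drugs to amiodarone was 1.35 (1.19 to 1.53). Txk, a Tec-family kinase of T cells and natural killer cells, lay between 1.19 and 1.43 FPKM and was not called.

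Because each drug was given with and without the other, 2 comparisons per drug share no library. For dabigatran, 10 of the 12 natural killer and cytotoxic genes were higher both with and without amiodarone (83.3%, beside 26.7% of all genes), and for Eomes, Nkg7, Gzma, Prf1 and Il2rb both intervals lay above 1 (41.7%, where 4.42% of all genes had both on one side). Of the 28 T cell genes 10 were higher in both (35.7%), and both intervals lay above 1 for Skap1 (3.57%). For amiodarone, 15 of the 28 T cell genes were lower both with and without dabigatran (53.6%, beside 37.8% of all genes), and both intervals lay below 1 for Cd8a and above 1 for Il7r. Of the natural killer and cytotoxic genes 0 were higher in both, beside 25.6% of all genes, and 4 were lower (33.3%), Eomes with both intervals below 1. Both amiodarone intervals lay on one side of 1 for 7.14% of the T cell genes, 8.33% of the natural killer and cytotoxic genes and 21.6% of all genes.

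Put as an order of libraries, 12 of the 28 T cell genes had both amiodarone libraries below both others (Cd3e, Cd247, Cd8a, Cd8b1, Cd5, Cd6, Cd27, Zap70, Bcl11b, Thy1, Cxcr6 and Gata3), as did 31.1% of all genes and 0 of the 12 natural killer and cytotoxic genes. Cd2, Il7r and Cxcr3 had both amiodarone libraries above, against 21.0% of all genes. The next orders were looked for after the values were seen. Both dabigatran libraries were above both others for 10 of the 12 natural killer and cytotoxic genes, for 4 of the 28 T cell genes (Cd3d, Cd28, Lck and Skap1) and for 13.3% of all genes. They were below both others for Cd4 and Ctla4, against 7.57% of all genes. These orders take no account of counting error. Among the 10 natural killer and cytotoxic genes above, the interval of both drugs against amiodarone included 1 for Tbx21, Ncr1 and Txk. That of dabigatran against vehicle included 1 for Klrb1c, Klrd1 and Txk. Ncr1 read 2.59 FPKM with both drugs against 2.58 with amiodarone. The vehicle library was the lowest of the 4 for 7 of the 12 natural killer and cytotoxic genes (Tbx21, Ncr1, Klrk1, Nkg7, Gzma, Gzmb and Il2rb), for Il7r and Cxcr3 among the T cell genes, and for 21.1% of all genes.

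The promoters of 4 cytotoxic genes described above, chosen after their values were seen, are shown with that of Cd8a so that their sequences can be read beside their values. Windows from 250 bases before to 50 bases after the start were taken from RefSeq for GRCm38.p6, and capitals mark matches, on either strand, to the Runt core TGTGGT, which reads as ACCACA from the other strand, to the T-box element GGTGTGA and to the STAT spacing TTCNNNGAA. The windows are Gzmb at chr14:56262285-56262584 on the minus strand, Gzma at chr13:113100932-113101231 on the minus strand, Ncr1 at chr7:4337465-4337764 on the plus strand and Nkg7 at chr7:43436888-43437187 on the plus strand, with Cd8a at chr6:71373177-71373476 on the plus strand for comparison.
Gzmb: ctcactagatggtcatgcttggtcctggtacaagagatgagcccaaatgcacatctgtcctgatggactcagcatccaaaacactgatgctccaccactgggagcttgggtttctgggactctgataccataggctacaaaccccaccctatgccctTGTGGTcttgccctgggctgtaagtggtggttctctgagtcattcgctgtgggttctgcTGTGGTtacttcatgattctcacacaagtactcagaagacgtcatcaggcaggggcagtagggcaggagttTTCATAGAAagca
Gzma: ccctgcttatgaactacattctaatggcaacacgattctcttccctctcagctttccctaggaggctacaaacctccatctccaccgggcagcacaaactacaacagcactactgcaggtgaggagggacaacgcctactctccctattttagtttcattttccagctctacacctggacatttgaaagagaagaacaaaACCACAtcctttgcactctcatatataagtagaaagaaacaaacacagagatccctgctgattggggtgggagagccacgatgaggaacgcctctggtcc
Ncr1: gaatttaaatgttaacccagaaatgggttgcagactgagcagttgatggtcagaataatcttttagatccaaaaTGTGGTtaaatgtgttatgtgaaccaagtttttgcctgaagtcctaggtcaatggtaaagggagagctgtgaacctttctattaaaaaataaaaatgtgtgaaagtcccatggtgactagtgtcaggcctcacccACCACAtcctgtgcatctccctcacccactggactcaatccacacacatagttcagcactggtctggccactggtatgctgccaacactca
Nkg7: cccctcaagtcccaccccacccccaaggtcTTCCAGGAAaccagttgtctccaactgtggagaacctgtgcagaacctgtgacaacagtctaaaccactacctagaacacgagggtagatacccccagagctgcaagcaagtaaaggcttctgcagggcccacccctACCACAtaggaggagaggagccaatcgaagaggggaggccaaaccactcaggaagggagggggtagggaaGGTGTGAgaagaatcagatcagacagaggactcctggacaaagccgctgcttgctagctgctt
Cd8a: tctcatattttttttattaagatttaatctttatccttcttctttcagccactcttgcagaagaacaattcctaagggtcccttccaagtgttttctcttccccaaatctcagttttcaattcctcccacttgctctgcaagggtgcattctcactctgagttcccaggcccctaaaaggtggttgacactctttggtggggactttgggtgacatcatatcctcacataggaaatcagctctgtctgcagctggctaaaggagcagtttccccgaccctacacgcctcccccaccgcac
The Gzmb window holds the Runt core at 2 places and the STAT spacing at 1, and that of Ncr1 holds the Runt core at 2. In Nkg7 each of the 3 motifs was found at 1 place, in Gzma the Runt core at 1, and in Cd8a none of them. A window was found for 11 natural killer and cytotoxic genes and 19 T cell genes. The Runt core was in the windows of 8 of the 11 (72.7%), 6 of the 19 (31.6%) and 16.1% of all genes. The STAT spacing was in 3 of the 11 (27.3%), 3 of the 19 (15.8%) and 8.56% of all genes, and the T-box element in 1 of the 11 (9.09%), 0 of the 19 and 4.39% of all genes. These are matches of letters in short windows, without a test, and say nothing of binding.

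Further genes of both cell types were read from wider lists. Of 28 other natural killer and cytotoxic genes 27 had a ratio, and with dabigatran against vehicle 22 of these were higher, 9 were called higher (1.56% of all genes) and 0 lower (1.56%), with a median log2 ratio of 0.28. With both drugs against amiodarone 7 were called higher (2.79% of all genes) and 2 lower (2.28%), and with both drugs against dabigatran 3 higher (4.44%) and 5 lower (4.88%). With amiodarone against vehicle 2 were called higher (5.33% of all genes) and 2 lower (7.50%), and the median log2 ratio was 0.00. Gzmk, a granzyme of memory CD8 T cells, rested on 1 read on vehicle, 23 on amiodarone, 20 on dabigatran and 6 on both drugs, so that its ratio of amiodarone to vehicle of 20.9 had an interval from 3.39 to 860. Cd244a, a SLAM-family receptor, was 2.22-fold higher with amiodarone (1.61 to 3.10), and Klra7, a Ly49 receptor, was 0.486 times vehicle (0.309 to 0.751), where reads are divided by estimation among close copies of the Klra family. Klrc2, an activating NKG2 chain, was also among the 4 largest ratios of this list with amiodarone, at 0.570, but its interval (0.195 to 1.51) included 1.

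Of 21 other T cell genes 18 had a ratio and 3 were not in the table, the receptor constant genes Trac, Trbc1 and Trbc2. With amiodarone against vehicle 3 were called higher (5.33% of all genes) and 0 lower (7.50%), and with dabigatran against vehicle 1 higher and 0 lower (1.56% of all genes in each direction), with median log2 ratios of -0.01 and 0.10. S1pr1, the exit receptor of lymphocytes that lung endothelium also expresses in quantity, read 90.0 FPKM on vehicle, 163 on amiodarone, 107 on dabigatran and 140 on both drugs, and was 1.81-fold higher with amiodarone (1.75 to 1.88). The intervals of Sit1 and Cd40lg, at 3 to 18 reads, included 1 for amiodarone against vehicle.

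Of 9 genes for regulatory and inhibitory receptors 5 were called higher with amiodarone than with vehicle (5.33% of all genes) and 0 lower (7.50%), with a median log2 ratio of 0.79. Called or not, 7 of the 9 were higher and 2 lower. The lower genes were Ikzf2 (0.797) and Tnfrsf18 (0.860), and both intervals included 1. Il2ra, the alpha chain of the IL-2 receptor, was 2.37-fold higher (1.5 to 3.85), and Cd274, the ligand PD-L1 that myeloid and epithelial cells also make, 2.23-fold higher (1.95 to 2.55). Pdcd1, which encodes PD-1, had 3 reads on vehicle, 15 on amiodarone, 5 on dabigatran and 1 on both drugs, and its ratio of amiodarone to vehicle was 4.78 (1.35 to 25.7). Tigit, another inhibitory receptor, had 6, 21, 8 and 18 reads and a ratio of 3.30 (1.29 to 9.98). With both drugs against amiodarone 3 of the 9 were called lower (2.28% of all genes) and 0 higher (2.79%), with dabigatran against vehicle 1 was called lower (1.56%), and with both drugs against dabigatran 3 were called higher (4.44%).

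Of 20 ligands for receptors among the members 14 had 10 or more reads in a library, and Cxcl11 and Cd58 were not in the table. With amiodarone against vehicle Cxcl9, Cxcl10 and Cd80 were called higher and 0 lower, where 5.33% and 7.50% of all genes were, and with dabigatran against vehicle 0 were called, where 1.56% of all genes were in each direction. Cxcl9, an interferon-gamma-induced ligand of Cxcr3, read 0.16 FPKM on vehicle, 1.5 on amiodarone, 0.32 on dabigatran and 0.46 on both drugs, a ratio of 9.38 for amiodarone against vehicle (4.54 to 22.5). Cxcl10, another ligand of Cxcr3, read 1.15, 4.8, 1.94 and 1.92 FPKM, with a ratio of 4.17 (2.58 to 7.06). Both ligands were highest in the amiodarone library, as Cxcr3 was, and in the combination they were 0.307 (0.187 to 0.486) and 0.40 (0.267 to 0.589) times amiodarone alone. Cd80, a ligand of Cd28 and Ctla4 on antigen-presenting cells, was 2.24-fold higher with amiodarone (1.33 to 3.91).

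Markers of other cells moved between the same libraries. The 7 B cell genes, led by Cd79a, summed to 185.99 FPKM on vehicle, 65.35 on amiodarone, 157.2 on dabigatran and 117.86 on both drugs. All 7 were called lower with amiodarone against vehicle (7.50% of all genes) and 6 called higher with both drugs against amiodarone (2.79%). Of the 4 lymph node and follicle genes with a ratio, 3 were called lower and 2 called higher in the same comparisons. The 5 neutrophil genes summed to 89.58, 585.51, 66.86 and 422.05 FPKM, all 5 called higher with amiodarone against vehicle (5.33% of all genes). In that comparison 5 of the 8 macrophage genes, which summed to between 3487.96 and 5077.61 FPKM, were called higher as well. With dabigatran against vehicle, all 5 red blood cell genes and all 4 endothelial genes had intervals above 1, as did 13.9% of all genes. Their ratios ran from 1.08 to 1.18 and from 1.11 to 1.17, and none of them was called. With dabigatran against vehicle 1 of the 8 macrophage genes and 1 of the 4 lymph node and follicle genes with a ratio were called higher, against 1.56% of all genes. The part of any of these in the T cell, natural killer and cytotoxic levels was not tested. With both drugs against amiodarone, the red blood cell genes stood at ratios from 0.382 to 0.417, with sums of 15785.4 FPKM on vehicle, 21407.3 on amiodarone, 17537.2 on dabigatran and 8524.4 on both drugs. No gene found in the table from these lists was at 0 in a library. The general leukocyte genes summed to 212.65, 273.95, 201.72 and 314.49 FPKM, and the basophil protease Mcpt8 had 1 read in each library. The part that these cells take in the levels of genes they share with lymphocytes, such as Cd4, Cd274 and S1pr1, was not tested.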

How the data were processed

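The series holds 4 lung libraries, 1 per group, and groups were taken from the labels. Per the labels and methods, the authors mapped DNBseq reads of polyadenylated RNA with HISAT to GRCm38.p6 and with Bowtie2 to reference gene sequences. They estimated expression with RSEM. The deposited table gives, per gene and library, an estimated count of reads and a normalized value on a linear scale. The authors do not name its unit, and the deposited values were read as FPKM because reads per unit of value differ between libraries by the factor of their total reads for most genes. RSEM weights reads by transcript length, so a gene read from another mix of isoforms can have different ratios from FPKM and from reads. Another 8 columns, means over 2 libraries, were not used.

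FPKM ratios were computed with no pseudocount for genes with 10 or more reads in at least 1 library, with exact Clopper-Pearson 95% intervals from the reads, rounded to whole numbers. Sequenced fragments are not independent molecules, so the intervals cover counting error only. With 1 library per group no test was run, and a fit of both drugs without their interaction would have taken that interaction for its error. Values are given for members called in a comparison, for the T cell receptor complex and co-receptors, and for natural killer receptor and granule genes. From further lists the 4 genes with the largest ratio of amiodarone to vehicle in either direction are named, except 1 gene that is not reported here, and genes outside this rule were named after their values were seen. The members and lists were chosen with earlier results of these data known. Alternatives were other scalings, read minimums, thresholds, pseudocounts of 0.1 and 1, and stricter lists. All 41 members were matched to RefSeq positions. Python 3.11.15 with numpy 2.4.6, pandas 2.3.3, scipy 1.17.1 and matplotlib 3.10.9 was used, and the scripts were tested on simulated data.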

Additional observations from a re-analysis of the deposited data

Results flagged for a closer look

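For 4 of the 40 members with a ratio, 3 for dabigatran and 1 for amiodarone, a drug went with opposite directions in the absence and in the presence of the other drug, each ratio with a counting interval that excludes 1 and the 2 comparisons sharing no library. Of all genes 7.43% did so for dabigatran and 3.65% for amiodarone, so the members do not stand out by their number. With 1 library per group the difference between these ratios was not tested. For dabigatran, Gzmb was 2.57-fold higher than with vehicle and 0.668 times amiodarone when added to it, so that the first ratio was 3.85 times the second. Ccr7 was 0.842 times vehicle and 1.21 times amiodarone, the first ratio being 0.694 of the second, and Tcf7 was 0.889 and 1.11, or 0.799. For amiodarone, Gzma was 1.39-fold higher than with vehicle and 0.892 times dabigatran when added to it, the first ratio being 1.56 times the second. Tcf7 and Ccr7 lie under 1.5-fold in every one of these ratios.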

How the results depend on the processing

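All 56 recomputed medians of the T cell genes and of the natural killer and cytotoxic genes lay within the limit set for an unchanged value, across library scalings, read minimums, pseudocounts and stricter lists. That limit was wide, so it does not show that a median kept its size. For the combination against amiodarone, the T cell median log2 ratio of 0.13 counted as unchanged at 0.07 (reads scaled to library totals) and 0.22 (stricter lists). No recomputed median changed sign. Of the recomputed counts of called genes, 97 lay within 1.5 times the reported count and 31 did not, mostly where the rule for a call was changed. With a counting interval that excludes 1 at any fold, T cell genes higher and lower numbered 3 and 6 for amiodarone against vehicle, 5 and 3 for dabigatran against vehicle, and 3 and 5 for the combination against dabigatran, and 4 were higher in the combination against amiodarone. Under that rule the natural killer and cytotoxic genes numbered 2 and 2 for amiodarone against vehicle, 7 and 1 for the combination against amiodarone, and 5 lower for the combination against dabigatran. The shares of all genes higher and lower were 18.0% and 28.1% for amiodarone and 13.9% and 12.3% for dabigatran against vehicle. For the combination they were 19.4% and 13.8% against amiodarone, and 17.9% and 22.1% against dabigatran. For amiodarone against vehicle the T cell shares, 10.7% and 21.4%, lay below those of all genes. At 2-fold, 0 T cell genes were lower with amiodarone, 0 higher with dabigatran, 0 higher and 1 lower in the combination against amiodarone and 0 lower against dabigatran, and of the natural killer and cytotoxic genes 2 were higher with dabigatran, 0 higher in the combination against amiodarone and 0 lower against dabigatran. On the stricter lists 0 T cell genes were called higher with amiodarone, 0 with dabigatran and 0 in the combination against amiodarone. There 0 were called lower in the combination against dabigatran. Of 7 natural killer and cytotoxic genes on these lists 4 were higher with dabigatran, 1 higher in the combination against amiodarone and 1 lower against dabigatran. The stricter lists leave out some genes of shared use, but still hold others, such as Cd4, Gzmb and Prf1. From reads scaled to library totals 0 T cell genes were higher in the combination against amiodarone, and with a minimum of 30 reads 1 was lower. After rescaling by the median ratio 1 natural killer and cytotoxic gene was higher and 1 lower in that comparison. The number of libraries limits every value, and at 13 to 27 reads, as for Ctla4, an interval spans severalfold.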
